A study of Mus musculus with 4 samples.

Results

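The immediate early and activity-induced genes Fos, Fosb, Junb, Egr1, Egr3, Arc, Npas4, Nr4a1 and Bdnf were followed in single nuclei of the mouse basolateral amygdala (BLA). They were chosen by gene symbol, and all 9 were found among the 32285 genes of the count matrices. The study set DISC1-N mice against wild-type (WT) mice, both on the C57BL/6J strain, with 2 single-nucleus RNA libraries each. Per the labels' protocols, all mice, WT included, had received tamoxifen by intraperitoneal injection 6 h before tissue was taken under isoflurane, and tissue from both sides of the brain of 5 mice was combined for each group. The genotype field of the labels spells the mutant DISC-N. The labels used here do not give the construct, its promoter or the cells it acts in, nor the age of the mice, and do not say whether the 2 libraries of a genotype came from separate mice. P-values below therefore measure the spread between libraries, which may be technical. In fits that take the replicate number as a block, they measure the spread left once differences between replicate numbers are removed, which may be technical too. Nuclei were released in a buffer with 5 µg/mL actinomycin, a name given to inhibitors of transcription.

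Immediate early genes are transcribed within minutes of a rise in neuronal calcium, without new protein synthesis, and their RNA is short-lived. Calcium-dependent kinases act on transcription factors such as CREB, SRF with its ELK partners, and MEF2, which sit at the promoters and enhancers of these genes before the stimulus. Most of the first products are transcription factors that switch on a later set of genes, whereas Arc and Bdnf act at synapses. In the amygdala these genes are widely used as marks of neurons that took part in a recent experience such as fear learning.

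Among the transcription factors, Fos and Fosb encode partners of Jun proteins in the AP-1 complex, and Junb encodes one of those Jun proteins. Egr1 and Egr3 encode zinc finger factors, Npas4 a neuronal factor that responds closely to calcium entry, and Nr4a1 an orphan nuclear receptor. Arc encodes a synaptic protein that takes part in removing AMPA receptors from the membrane, and Bdnf a neurotrophin that binds the receptor TrkB, encoded by Ntrk2. In the mm10 annotation Fos lies on the plus strand of chr12:85473890-85477273, Npas4 on the minus strand of chr19:4984355-4990316, Nr4a1 on the plus strand of chr15:101254269-101274795, Arc on the minus strand of chr15:74669083-74672570 and Bdnf on the plus strand of chr2:109674700-109727007. Junb, on the minus strand of chr8:84974484-84978718, overlaps Prdx2 on the plus strand, and Bdnf overlaps the minus-strand gene Gm45346.

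The RefSeq promoter table (build GRCm38.p6, 250 bases before to 50 after a start) held windows for 6 of the 9 genes, 12 windows in all, 7 of them for Bdnf. The core of the cyclic AMP response element, TGACG on either strand (CGTCA on the other), through which CREB acts, was present 2 times for Fos, 2 times for Npas4 and 4 times for Nr4a1. It was present once each for Fosb and Junb and in 1 of the 7 Bdnf windows, against 20.8% of all 32851 promoter windows of the same length. The 3 windows with more than 1 core are shown because these letters are what these genes' windows share, with the cores of either strand in capitals and each window read 5′ to 3′ on the gene's strand. The Fos window is chr12:85473640-85473939 (plus), the Npas4 window chr19:4989922-4990221 (minus) and the Nr4a1 window chr15:101266596-101266895 (plus).
Fos: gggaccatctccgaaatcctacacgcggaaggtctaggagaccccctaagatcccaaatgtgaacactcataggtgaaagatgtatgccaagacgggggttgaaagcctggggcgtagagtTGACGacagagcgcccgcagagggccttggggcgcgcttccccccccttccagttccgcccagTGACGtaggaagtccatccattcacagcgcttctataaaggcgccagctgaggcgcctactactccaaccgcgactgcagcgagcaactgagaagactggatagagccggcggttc
Npas4: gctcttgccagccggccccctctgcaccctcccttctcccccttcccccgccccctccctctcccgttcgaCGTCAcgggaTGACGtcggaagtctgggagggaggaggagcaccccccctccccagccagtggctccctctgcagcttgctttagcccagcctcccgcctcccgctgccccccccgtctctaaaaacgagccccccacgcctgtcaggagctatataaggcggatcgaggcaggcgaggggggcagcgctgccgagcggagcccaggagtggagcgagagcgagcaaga
Nr4a1: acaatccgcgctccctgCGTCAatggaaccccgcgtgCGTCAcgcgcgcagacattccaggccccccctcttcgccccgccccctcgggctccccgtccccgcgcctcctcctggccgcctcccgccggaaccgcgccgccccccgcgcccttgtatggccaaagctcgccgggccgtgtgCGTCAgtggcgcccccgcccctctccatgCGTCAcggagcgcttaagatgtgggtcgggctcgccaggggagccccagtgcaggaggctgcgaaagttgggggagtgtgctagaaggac
The full element, TGACG followed by TCA (which overlaps the core), was in none of the 12 windows and in 1.79% of all windows, and the CArG box bound by SRF was in none and in 1.63% of all. The AP-1 site TGANTCA was in 1 Bdnf window and in 7.81% of all, and TATAAA was in the Fos and Junb windows and in 13.6% of all. A match is a description of the letters and not a site.

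The 4 libraries held 27313 barcodes and between 37840301 and 48439711 unique molecular identifiers (UMIs, each a counted RNA molecule). After filtering, 25331 nuclei were kept, of which 6300 were excitatory and 6967 inhibitory neurons by their marker genes. A further 2967 nuclei had no class, and 79 barcodes occurred in more than 1 library. Of the nuclei without a class, 2068 were in a cluster left out for its doublet score, which scored highest for excitatory markers. It held 875 and 77 nuclei of DISC1-N replicates 1 and 2, against 961 and 155 of WT. In replicate 1 it held 20810215 UMIs in DISC1-N and 23005463 in WT. The kept excitatory neurons held fewer there, at 10410172 and 11390327 UMIs. Among the named classes, the marker genes of each class summed highest in that class in every library. UMIs of an excitatory gene were found in every class, as RNA free of nuclei would give. Slc17a7, the vesicular glutamate transporter of excitatory neurons, stood at 173 and 60.9 CPM (a gene's UMIs scaled to a fixed total of UMIs) in oligodendrocytes of DISC1-N replicates 1 and 2, against 188 and 54.8 CPM in those of WT, beside 251 and 157 CPM in DISC1-N excitatory neurons, against 249 and 159 CPM in WT ones. In microglia of DISC1-N replicate 1 it reached 304 CPM, above the excitatory neurons of that library. Outside neurons these UMIs made up more of replicate 1 than of replicate 2 in both genotypes. Levels are given as CPM of the UMIs summed over the nuclei of a class in 1 library. They are compared between samples and cell types, and not between genes.

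Bdnf set excitatory neurons apart from inhibitory neurons and most glia. In excitatory neurons Bdnf stood at 37.7 and 38.2 CPM in DISC1-N replicates 1 and 2, against 45.1 and 45.4 CPM in WT replicates 1 and 2, and in inhibitory neurons at 7.47 and 2.61 CPM in DISC1-N, against 9.63 and 3.66 CPM in WT. The lowest excitatory library was above the highest library of every other class except microglia, where Bdnf ranged from 9.49 to 40.8 CPM on 33 UMIs, and endothelial cells, where it ranged from 0 to 46.1 CPM on 7 UMIs. In an edgeR quasi-likelihood fit over all genes with library as a block, Bdnf was higher in excitatory than in inhibitory neurons by 3.15 ± 0.18 on the log2 scale (SE, adjusted p = 8.93e-10, 4 of 4 libraries). Nr4a1 was higher by 0.72 ± 0.09 (adjusted p = 3.83e-06 in the same edgeR fit) and Egr3 by 0.58 ± 0.12 (adjusted p = 0.000515).

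Fos and Egr1 were lower in excitatory than in inhibitory neurons, with log2 differences of -0.67 ± 0.26 (adjusted p = 0.0374) and -0.35 ± 0.13 (adjusted p = 0.029) in the same edgeR fit. Junb, Fosb, Arc and Npas4 did not pass it. In that comparison 58.3% of 15812 genes were called, 27.3% higher and 30.9% lower, so 3 genes higher and 2 lower of 9 is near the background share. The 2 lower calls were lost without WT replicate 1 (3 called in all) and without DISC1-N replicate 2 (3 called).

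Against astrocytes, 5 of the 9 genes were higher in excitatory neurons in the edgeR fit with library as a block, where 69.8% of 15083 genes were called and 35.5% were higher. Nr4a1 was higher by 2.83 ± 0.23 on the log2 scale, Npas4 by 2.37 ± 0.37, Bdnf by 2.05 ± 0.30, Arc by 1.35 ± 0.30 and Egr3 by 0.84 ± 0.33 (adjusted p = 0.0437). Npas4 had 308 UMIs in excitatory and 182 in inhibitory neurons, at 4.39 to 7.43 and 4.66 to 6.62 CPM over the 4 libraries. It had 2 UMIs in oligodendrocytes, 2 in microglia and 8 in astrocytes, where its highest library stood at 1.90 CPM. The highest astrocyte library was thus below the lowest library of either neuron class.

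Junb was highest in microglia, the resident immune cells of the brain, at 83.3 and 116 CPM in DISC1-N replicates 1 and 2, against 81.6 and 103 CPM in WT. The lowest microglial library was above the highest library of the other classes, which reached 41.4 CPM in differentiating oligodendrocytes and 40.6 CPM in oligodendrocytes, except for endothelial cells, at 36.9 to 91.7 CPM on 23 UMIs. Egr1 stood at 13.3 to 27.2 CPM in microglia and 9.14 to 22.9 CPM in oligodendrocytes, on 29 and 52 UMIs, and these ranges overlapped. Fos levels of all classes overlapped, apart from differentiating oligodendrocytes and endothelial cells, where no Fos UMI was seen in any library.

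The share of nuclei with a UMI set these levels beside the background. In excitatory neurons, 16.3% of DISC1-N and 16.1% of WT nuclei held a Junb UMI, 16.5% and 18.1% a Bdnf UMI, 3.60% and 5.92% an Egr1 UMI, and 1.06% and 2.16% a Fos UMI, at median depths of 8282.5 and 7477 UMIs. The Egr1 share was lower in DISC1-N in both replicates, at 4.45% and 3.15%, against 5.92% in each WT library. The Fos shares pool libraries that held 14 and 24 Fos UMIs in DISC1-N, against 18 in WT replicate 1 and 83 in WT replicate 2. With every nucleus thinned to 1000 UMIs, 2.84% of DISC1-N and 3.52% of WT excitatory nuclei held a Bdnf UMI, against 1.36% and 1.39% of oligodendrocytes, whose unthinned shares were 1.51% and 2.11% at median depths of 1344.5 and 1361 UMIs. Thinning left out 6 DISC1-N and 8 WT excitatory nuclei, and 182 and 203 oligodendrocytes. Npas4 thinned to 0.612% of DISC1-N and 0.629% of WT excitatory nuclei, against 0.114% and 0.0928% of oligodendrocytes, and Nr4a1 to 1.61% and 2.04%, against 0.341% and 0.928%. Junb, Egr1, Egr3 and Arc were at or below the oligodendrocyte share in thinned excitatory nuclei of both genotypes, and the oligodendrocytes' own expression of these genes cannot be told apart from free RNA here.

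**Figure D1:**
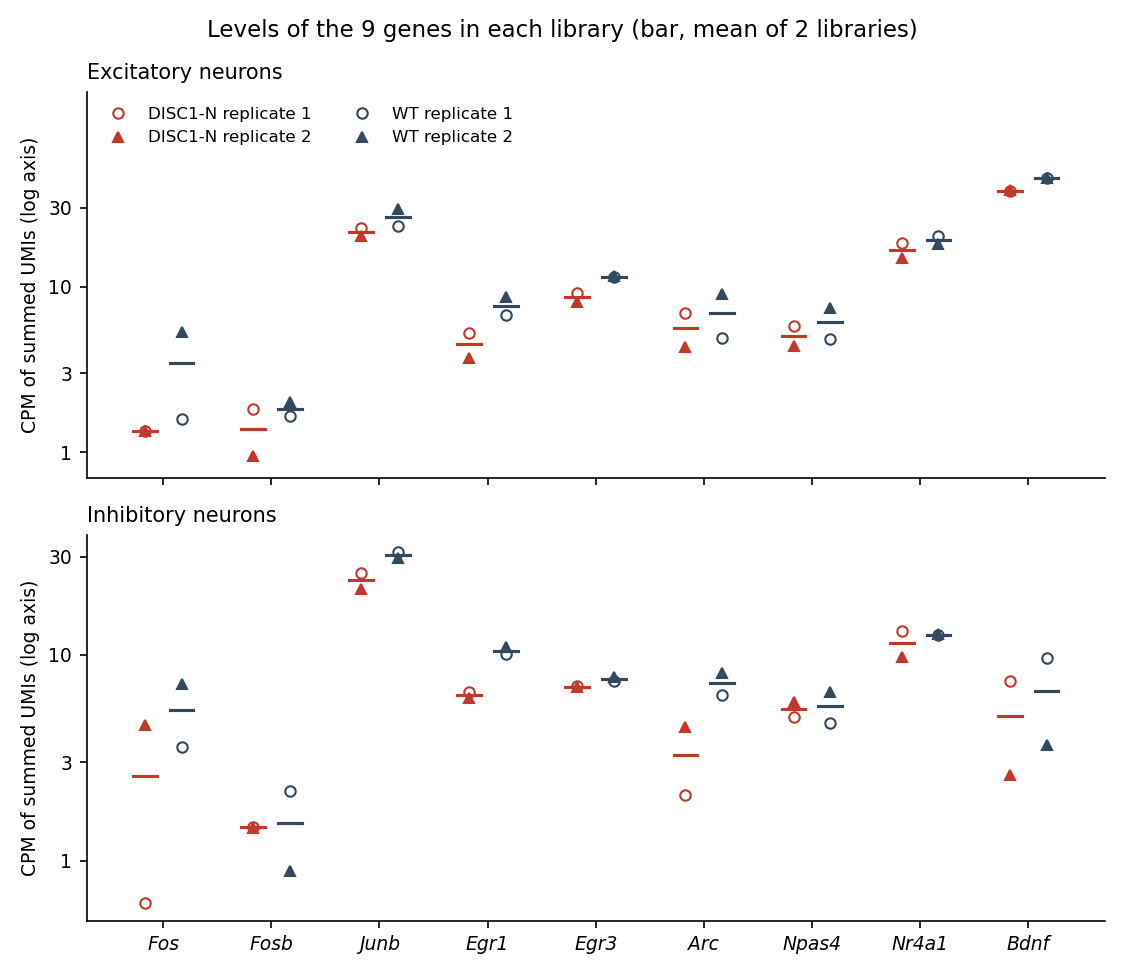
CPM of the 9 genes (log axis) in excitatory (top) and inhibitory (bottom) neurons, with 1 point per library and a bar at the mean of the 2 libraries of a genotype. In excitatory neurons Fos of WT replicate 2, at 5.36 CPM, stands above the other 3 libraries, at 1.34 to 1.58 CPM.

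Neurons were split into subclusters, each named here by its leading genes, without using the 9 genes or the other activity genes. Levels were read in the 20 subclusters with at least 20 nuclei in every library. Bdnf was highest in the excitatory subcluster Plce1/Slc24a2, at 75.3 CPM (58.6 to 86.4 over the 4 libraries), followed by Adarb2/Baiap3 at 53.7 CPM, Cdh13/Trhr at 43.0 CPM and Sema3e/Dlc1 at 42.5 CPM. The highest inhibitory subcluster, Vip/Plpp4, stood at 11.5 CPM and the lowest, Sst/Satb1, at 2.33 CPM. Neighbours in this order overlapped in their ranges at every step.

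Among the other genes the order of subclusters differed. Npas4 was highest in the inhibitory subcluster Stk31/Drd2, at 10.6 CPM (8.20 to 12.4), and the excitatory Htr7/Col26a1, at 9.93 CPM (6.59 to 12.9). Junb was highest in the inhibitory Stk31/Drd2, Gpr149/Rarb and Abi3bp/Npffr2, at 35.9, 35.5 and 34.3 CPM. Egr1 and Arc were highest in the inhibitory Abi3bp/Npffr2, at 13.9 CPM (6.96 to 22.3) and 9.77 CPM (0 to 17.7). Egr3 was highest in the excitatory Cdh13/Trhr, at 14.0 CPM (9.97 to 24.7), and Nr4a1 in the inhibitory Vip/Plpp4, at 23.8 CPM (14.3 to 30.7), with its lowest inhibitory level in Stk31/Drd2, at 7.83 CPM (4.51 to 10.5). For each of these genes, too, neighbouring subclusters overlapped throughout.

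**Figure D2:**
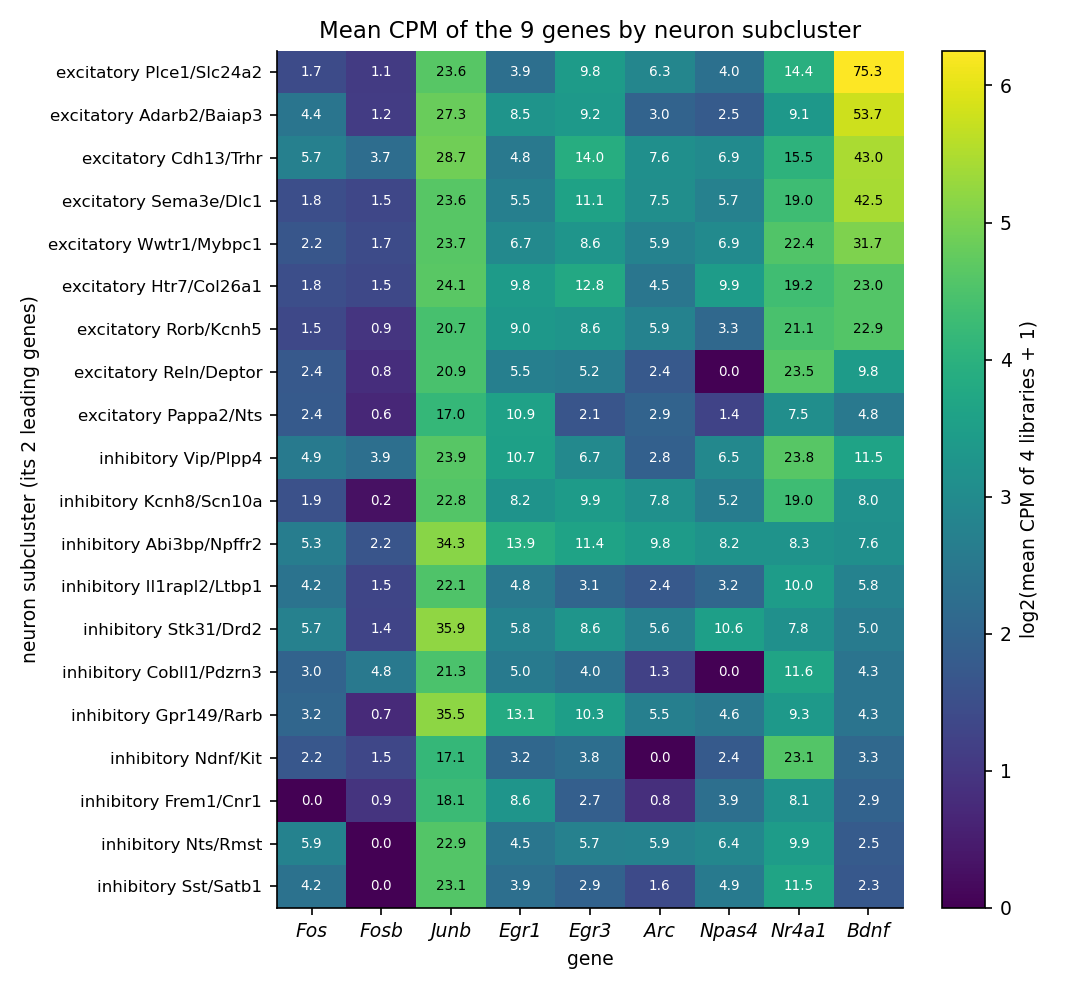
Mean CPM over the 4 libraries of the 9 genes (columns) in the 20 neuron subclusters (rows), coloured on the log2(CPM + 1) scale with the mean CPM printed in each cell. Bdnf spans 75.3 CPM in excitatory Plce1/Slc24a2 to 2.33 CPM in inhibitory Sst/Satb1, while Junb stays between 17.0 and 35.9 CPM.

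In excitatory neurons, Fos stood at 1.34 and 1.35 CPM in DISC1-N replicates 1 and 2, against 1.58 and 5.36 CPM in WT, on 14 and 24 UMIs against 18 and 83. Egr1 stood at 5.28 and 3.72 CPM in DISC1-N, against 6.76 and 8.66 CPM in WT. Both genes were lower in each DISC1-N library than in each WT library, but for Fos WT replicate 1 was close to the DISC1-N libraries and WT replicate 2 stood apart.

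Tested with edgeR on the summed counts of all genes, 0 of 16343 genes were called (0%) at an adjusted p under 0.05 in excitatory neurons, and DESeq2 and limma-voom likewise called 0. At an unadjusted p under 0.05 edgeR had 116 genes, of which Egr1 was the only one of the 9. In a fit that took the replicate number as a block, 167 genes were called by edgeR (1.02%), of which 110 were lower in DISC1-N (0.673%). Fos and Egr1 were among the lower ones, with log2 fold changes of -1.41 ± 0.33 (SE, adjusted p = 0.0148) and -0.83 ± 0.20 (adjusted p = 0.0233). Over 8 fits with the block, which differed in test, filter, nuclei or classes, Fos was called in 4, with adjusted p from 0.000644 to 1, and Egr1 in 3, with adjusted p from 0.00379 to 1. The Fos value rested on WT replicate 2. Without that library the fold change, with no block, was -0.16 for Fos and -0.54 for Egr1, against -1.40 and -0.80 with all 4 libraries.

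The other 7 genes did not pass in excitatory neurons. Bdnf stood at -0.25 ± 0.09 (adjusted p = 0.268 in the blocked edgeR fit), Junb at -0.32 ± 0.11 (adjusted p = 0.232) and Egr3 at -0.41 ± 0.15 (adjusted p = 0.285). Bdnf and Egr3 (9.22 and 8.11 CPM in DISC1-N, against 11.4 and 11.6 CPM in WT) did not overlap between genotypes, with DISC1-N below WT. Junb stood at 22.7 and 20.2 CPM in DISC1-N, against 23.3 and 29.7 CPM in WT. Arc stood at 6.92 and 4.34 CPM in DISC1-N, against 4.92 and 9.04 CPM in WT, Npas4 at 5.76 and 4.39 CPM, against 4.83 and 7.43 CPM, and Fosb at 1.83 and 0.958 CPM, against 1.67 and 2.003 CPM. For these 3 genes DISC1-N was above WT in replicate 1 and below it in replicate 2. Nr4a1 stood at 18.4 and 14.9 CPM in DISC1-N, against 20.4 and 18.0 CPM in WT, and the genotypes overlapped.

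Counted over the 9 genes, 9 of 9 log2 fold changes were below 0 in excitatory neurons with or without the block, with a median of -0.38 with it, against 51.8% of all genes tested below 0 and a median of -0.01. Without WT replicate 2 the count was 7 of 9, with Arc at 0.23 and Npas4 at 0.12. Both DISC1-N libraries were below both WT libraries for 5 of 9 genes, against 9.57% of all genes. These include Fos and Junb, which overlapped between genotypes once the few nuclei with several UMIs of the gene were left out. DISC1-N was below WT within each replicate number for 6 of 9, against 29.7% of all genes. The 9 genes were chosen with earlier results of these data known, so these counts are a description and not a test.

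**Figure D3:**
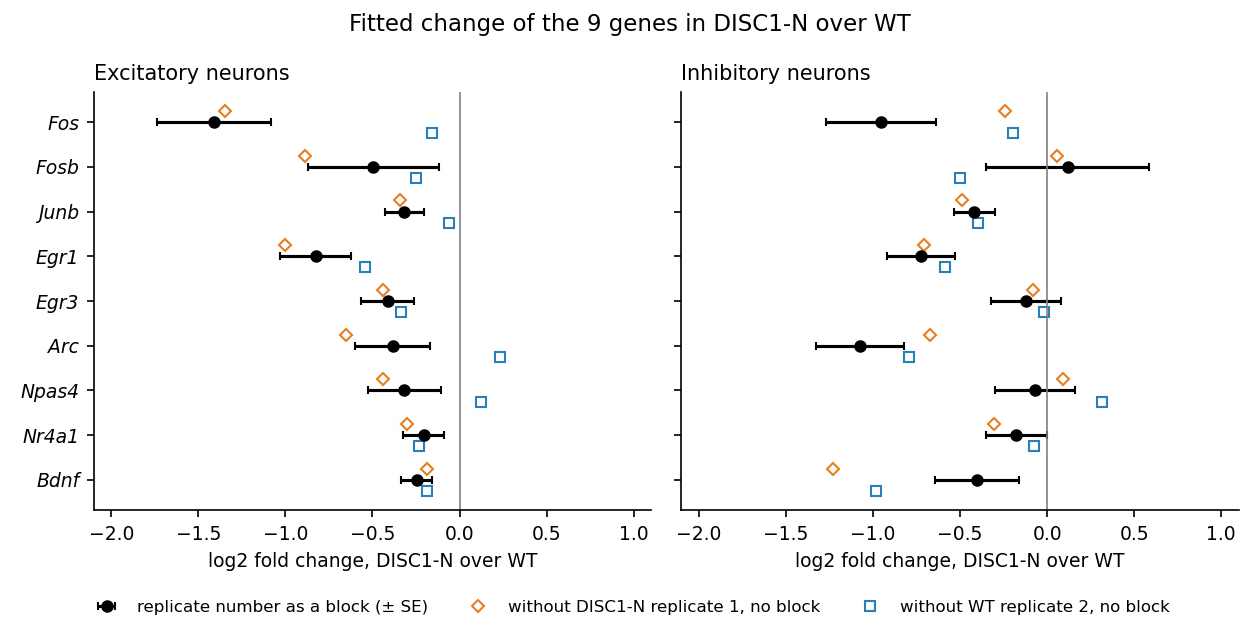
Log2 fold change of DISC1-N over WT for the 9 genes in excitatory (left) and inhibitory (right) neurons, from edgeR with the replicate number as a block (circles, ± SE) and without the block after leaving out DISC1-N replicate 1 (diamonds) or WT replicate 2 (squares). Without WT replicate 2 the excitatory Fos value is -0.16, beside -1.41 ± 0.33 in the blocked fit.

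WT replicate 2 had the most nuclei with several UMIs of Fos or of Junb. It had 7 excitatory nuclei with 3 or more Fos UMIs (up to 6), against 0 such nuclei in each DISC1-N library and 1 in WT replicate 1. It had 34 with 3 or more Junb UMIs (up to 12), against 4 and 7 in DISC1-N replicates 1 and 2 and 8 in WT replicate 1. Without nuclei of 3 or more Junb UMIs, Junb stood at 21.5 and 19.0 CPM in DISC1-N, against 20.9 and 20.3 CPM in WT. Without nuclei of 3 or more Fos UMIs, Fos stood at 1.34 and 1.35 CPM, against 1.32 and 3.50 CPM. Both genes then overlapped between genotypes. Bdnf, Egr1 and Egr3, treated alike, stayed lower in each DISC1-N library than in each WT library.

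Other measures moved with genotype in the same libraries. Mitochondrial UMIs made up 700 and 231 CPM of excitatory neurons in DISC1-N replicates 1 and 2, against 1398 and 418 CPM in WT. A list of heat shock genes summed to 476 and 217 CPM in DISC1-N, against 588 and 308 CPM in WT. Inhibitory marker genes summed to 38.3 and 23.8 CPM in DISC1-N excitatory neurons, against 48.3 and 32.8 CPM in WT ones, and all 6 of them were detected. Astrocyte markers summed to 226 and 202 CPM in DISC1-N, against 257 and 212 CPM in WT, oligodendrocyte markers to 85.1 and 55.5 CPM, against 96.9 and 60.0 CPM, and those of differentiating oligodendrocytes to 131 and 115 CPM, against 142 and 131 CPM. Fibroblast markers summed to 6.34 and 4.90 CPM in DISC1-N, against 8.34 and 6.65 CPM in WT. Each of these sums was lower in DISC1-N within both replicate numbers. Endothelial markers were higher, at 49.2 and 52.4 CPM in DISC1-N, against 43.5 and 49.4 CPM in WT. Microglial markers were slightly higher, at 50.9 and 51.3 CPM, against 50.3 and 50.7 CPM. Markers of oligodendrocyte precursors went both ways, at 192 and 189 CPM, against 165 and 236 CPM, as did mural and ependymal markers. The part of all these measures in the lower activity genes was not tested. Of the markers of the other classes, mural Acta2 was the only one at 0 in excitatory neurons. With nuclei under 1% mitochondrial UMIs, the blocked edgeR fit gave a log2 fold change of -1.41 with an adjusted p of 0.245 for Fos, and of -0.83 with an adjusted p of 0.254 for Egr1.

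In inhibitory neurons, Arc stood at 2.07 and 4.44 CPM in DISC1-N replicates 1 and 2, against 6.37 and 8.20 CPM in WT, on 10 and 46 UMIs against 41 and 83. Egr1 stood at 6.64 and 6.18 CPM in DISC1-N, against 10.1 and 10.9 CPM in WT, and Junb at 25.1 and 20.9 CPM, against 31.5 and 29.6 CPM. For each of these 3 genes both DISC1-N libraries lay below both WT libraries. Fos stood at 0.622 and 4.54 CPM in DISC1-N, against 3.57 and 7.22 CPM in WT, lower in DISC1-N within each replicate number but overlapping between genotypes, with 3 UMIs in DISC1-N replicate 1. Without the block its log2 fold change was -0.24 without DISC1-N replicate 1 and -3.16 without DISC1-N replicate 2.

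With the main classes, made from clusters, none of the 9 passed in inhibitory neurons in edgeR with the filter on low counts, with or without the block. Without the block edgeR called 0 of 15312 genes (0%), as did DESeq2 and limma-voom, and 88 had an unadjusted p under 0.05, of which 3 were Junb, Egr1 and Arc. With the block edgeR called 10 genes (0.0653%, of which lower 0.0457%) and none of the 9. The blocked log2 fold changes were -1.08 ± 0.25 for Arc (adjusted p = 0.277), -0.72 ± 0.19 for Egr1 (adjusted p = 0.352), -0.42 ± 0.12 for Junb (adjusted p = 0.395) and -0.95 ± 0.32 for Fos (adjusted p = 0.490), all in edgeR. Over 8 blocked fits that differed in test, filter, nuclei or classes, Arc was called in 2 (lowest adjusted p = 0.00325), Junb in 1 (0.0356) and Egr1 in 1 (0.0416), each with an adjusted p of up to 1 in the others. The Arc fold change without the block was -0.67 without DISC1-N replicate 1 and -1.86 without DISC1-N replicate 2. Of the 9, 8 were below 0 in the blocked fit, with a median of -0.40, against 51.2% of all genes. Both DISC1-N libraries were below both WT libraries for 4 of 9 (9.28% of all genes), and within each replicate number for 6 of 9 (29.7%). The 4 were Arc, Egr1, Junb and Egr3, the last at 7.05 and 6.96 CPM in DISC1-N, against 7.46 and 7.81 CPM in WT. The Egr3 log2 fold change without the block was -0.11 ± 0.26 in edgeR, smaller than its error. Here too the 9 genes were chosen with earlier results of these data known, so the counts over the 9 are a description.

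Mitochondrial UMIs of inhibitory neurons stood at 1584 and 515 CPM in DISC1-N, against 2487 and 702 CPM in WT, and heat shock genes at 741 and 351 CPM, against 935 and 491 CPM. The genotype effects of excitatory and inhibitory neurons were compared by an interaction term in edgeR. It called 0 of 15812 genes (0%), and none of the 9 had an unadjusted p under 0.05. The difference in effect was -0.51 ± 0.55 for Fos and 0.60 ± 0.41 for Arc on the log2 scale.

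In glia few of the 9 genes had enough counts to be fitted. In astrocytes 4 of 9 passed the filter on low counts, and edgeR called 0 genes without the block (67 at an unadjusted p under 0.05, 1 of them among the 9), as did DESeq2 and limma-voom, and 4 of 11832 (0.0338%, lower 0.00845%) with it, none of the 9. Egr3 stood at 4.89 and 2.19 CPM in DISC1-N replicates 1 and 2, against 15.5 and 6.18 CPM in WT, on 4 and 5 UMIs against 19 and 13. Bdnf stood at 12.2 and 4.39 CPM in DISC1-N astrocytes, against 27.8 and 9.04 CPM in WT ones. Blocked log2 fold changes ranged from -1.54 ± 0.52 for Egr3 (adjusted p = 0.409) to -0.55 ± 0.25 for Junb (adjusted p = 0.670). Egr3 reached the filter through its WT libraries alone, which fixes its direction. No count over the fitted genes is therefore set against all genes, of which 29.3% were lower in DISC1-N within each replicate number and 10.3% had both DISC1-N libraries below both WT libraries. Heat shock genes summed to 1289 and 587 CPM in DISC1-N astrocytes, against 1743 and 784 CPM in WT ones, and excitatory markers to 413 and 150 CPM, against 446 and 169 CPM, and their part in the astrocyte values was not tested. Fos, below the filter, had 0 and 10 UMIs in DISC1-N astrocytes, against 5 and 18 in WT ones.

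In oligodendrocytes 6 of 9 were fitted, 4 below 0, and blocked edgeR called 7 of 10100 genes (0.0693%, lower 0.0198%), none of the 9. Both DISC1-N libraries were below both WT libraries for 1 of the 6 (8.89% of all genes), and DISC1-N was below WT within each replicate number for 2 of the 6 (27.9%). Those shares are near the background. In oligodendrocyte precursors 3 were fitted, 2 below 0, and DISC1-N was below WT within each replicate number for 1 of the 3 (28.2% of all genes). In microglia 2 were fitted, 1 below 0. None of these passed, where blocked edgeR called 0.0467% (lower 0.00933%) and 0% of genes, and no gene of the 9 could be fitted in endothelial cells. In microglia the Junb fold change was 0.14 ± 0.28, so its high microglial level differed between genotypes by less than its error. Mural cells were not tested as a class, since the cluster of 167 nuclei that scored highest for mural markers also scored high for fibroblast markers and was left out for mixed markers.

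Within neuron subclusters, 51 pairs of gene and subcluster could be fitted, in 14 of the 20 subclusters. Without the block edgeR called 0 of them, and of all genes only 3 of 7034 in Nts/Rmst. With the block 3 were called, all lower in DISC1-N, and between 0.00983% of genes (Htr7/Col26a1) and 0.504% (Sema3e/Dlc1) were called in these 14. In the fitted subcluster Pappa2/Nts, where none of the 9 could be tested, the share was 0.0332%. Of the 51 pairs, 4 reached the filter on low counts through their WT libraries alone, so that their direction was fixed by the filter. These include Egr1 in Wwtr1/Mybpc1, which was called, so its lower direction is not a result. Subclusters of a class come from the same libraries and are not separate replicates.

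Egr1 in the excitatory subcluster Wwtr1/Mybpc1 stood at 3.56 and 1.96 CPM in DISC1-N, against 5.97 and 15.3 CPM in WT (blocked edgeR log2 fold change -2.02 ± 0.52, adjusted p = 0.0285, where 0.489% of genes were called). Its counts were 5 and 4 UMIs in DISC1-N, against 11 and 34 in WT, and it is 1 of the 4 pairs whose direction the filter fixed. Bdnf in the excitatory Cdh13/Trhr stood at 36.2 and 23.7 CPM in DISC1-N, against 61.6 and 50.7 CPM in WT (-0.95 ± 0.24, adjusted p = 0.0328 in edgeR, 0.315% called), and both DISC1-N libraries lay below both WT libraries. In the most Bdnf-rich subcluster, Plce1/Slc24a2, Bdnf stood at 58.6 and 73.9 CPM in DISC1-N, against 86.4 and 82.2 CPM in WT, and in the largest excitatory one, Sema3e/Dlc1, at 42.2 and 38.6 CPM, against 41.8 and 47.3 CPM. Neither passed. Egr1 in Plce1/Slc24a2 stood at 1.12 and 1.60 CPM in DISC1-N, against 5.87 and 7.01 CPM in WT, and did not pass either (-2.17 ± 0.61, adjusted p = 0.454 in blocked edgeR). It is another of those pairs, on 2 and 5 UMIs in DISC1-N, against 11 and 15 in WT.

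Arc in the inhibitory Abi3bp/Npffr2 stood at 0 and 7.40 CPM in DISC1-N, against 14.0 and 17.7 CPM in WT (-1.67 ± 0.39, adjusted p = 0.0343 in blocked edgeR, 0.0612% called). This was the inhibitory subcluster with the most nuclei (1933) and the highest Arc level. Fos in Cdh13/Trhr was not fitted for its low counts. It had 1 and 0 UMIs in DISC1-N, against 4 in WT replicate 1 and 26 in WT replicate 2, the library on which the excitatory Fos value rested.

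Joint detection was counted per nucleus, and the shares are not set against those that each gene's own frequency would give. Of excitatory nuclei, 16.6% and 13.5% in DISC1-N replicates 1 and 2, against 17.8% and 16.0% in WT, held UMIs of 2 or more of the 9 genes. Libraries of replicate number 1 differed by -1.18 percentage points (DISC1-N minus WT) and those of number 2 by -2.48 points. The difference in means of -1.83 points had a p of 0.667 in a two-sided exact permutation test, which with 2 libraries against 2 cannot go below 0.333. In inhibitory nuclei the shares were 3.65% and 3.14% in DISC1-N, against 5.27% and 4.16% in WT. Here libraries of number 1 differed by -1.62 points and those of number 2 by -1.02 points. Their mean of -1.32 points had an exact permutation p of 0.333, the smallest this design can give. These were the 2 shares tested. Excitatory nuclei were deeper in DISC1-N, with medians of 8535 and 8167 UMIs, against 7778 and 7260 UMIs in WT. Inhibitory medians were 4175 and 4155 UMIs in DISC1-N, against 4212 and 3768 UMIs in WT, and overlapped. With nuclei thinned to 1000 UMIs, the excitatory shares were 0.834% and 0.642% in DISC1-N, against 0.802% and 1.40% in WT. Excitatory DISC1-N was then above WT in replicate 1 and below it in replicate 2. The thinned inhibitory shares were 0.209% and 0.315% in DISC1-N, against 0.459% and 0.878% in WT, lower in both.

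**Figure D4:**
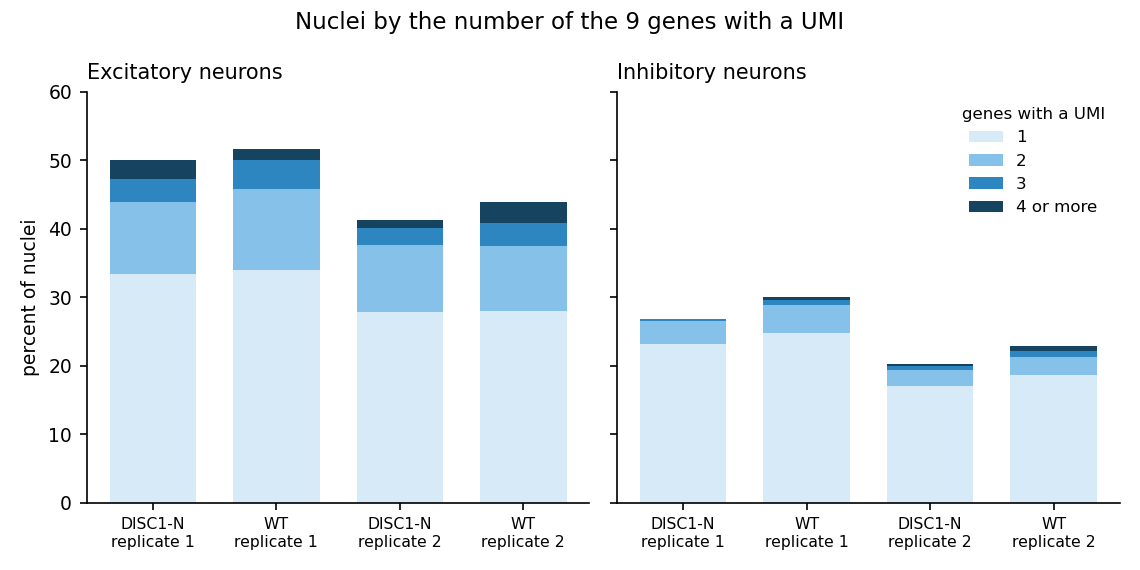
Percent of excitatory (left) and inhibitory (right) nuclei by how many of the 9 genes had a UMI (1, 2, 3, or 4 or more, stacked) in each library. Nuclei with 2 or more make up 13.5% to 17.8% of excitatory and 3.14% to 5.27% of inhibitory nuclei.

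Nuclei with 4 or more of the 9 genes were rare. There were 30 and 25 such excitatory nuclei in DISC1-N replicates 1 and 2, against 20 and 61 in WT, which is 2.78% and 1.23% of the nuclei in DISC1-N, against 1.60% and 3.14% in WT. The exact 95% binomial intervals, which cover counting error only, ran from 1.88% to 3.95% and 0.798% to 1.81% in DISC1-N, and from 0.981% to 2.46% and 2.41% to 4.02% in WT. DISC1-N was the higher one in replicate 1 and the lower one in replicate 2. Up to 6 and 7 of the genes were found in 1 nucleus in DISC1-N replicates 1 and 2, against up to 8 and 9 in WT. These 136 nuclei had a median of 10073 UMIs, against 7839 in the other excitatory nuclei, and a median doublet score of 0.0164, against 0.018. By subcluster they made up 3.63% of Wwtr1/Mybpc1, 3.13% of Cdh13/Trhr and 2.54% of Sema3e/Dlc1. At the low end they made up 1.05% of Rorb/Kcnh5, 0.704% of Pappa2/Nts and 0% of the 189 nuclei of Reln/Deptor. Median depths differed, at 9697.5 UMIs in Wwtr1/Mybpc1, 7059.5 in Rorb/Kcnh5, 8747.5 in Pappa2/Nts and 4477 in Reln/Deptor. Of the 24 such nuclei of Wwtr1/Mybpc1, 14 came from WT replicate 2. Inhibitory nuclei with 4 or more of the genes numbered 0 and 8 in DISC1-N, against 6 and 15 in WT. Their median doublet score was 0.0314, against 0.0134 in the other inhibitory nuclei, and the part of doublets in them was not tested.

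Since deeper nuclei hold more UMIs of any gene, joint expression was read as CPM among excitatory nuclei at or above the median depth of the class. There, 59 nuclei had a Fos UMI and 3093 had none, at medians of 10925 and 10636 UMIs. Bdnf stood at 202 CPM in the nuclei with Fos, against 41.9 CPM in those without, Junb at 90.8, against 19.8 CPM, Npas4 at 37.4, against 5.42 CPM, and Arc at 28.0, against 5.31 CPM. Nr4a1 stood at 49.4 CPM with Fos, against 17.5 CPM without, Egr3 at 29.4, against 9.19 CPM, Egr1 at 17.4, against 5.31 CPM, and Fosb at 17.4, against 1.27 CPM. Junb, Nr4a1 and Bdnf were higher with Fos in 4 of 4 libraries, Egr1, Egr3, Arc and Npas4 in 3 and Fosb in 2. Of the 59 nuclei, 29 came from WT replicate 2. Nuclei of 1 library are not replicates, so no test was made.

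**Figure D5:**
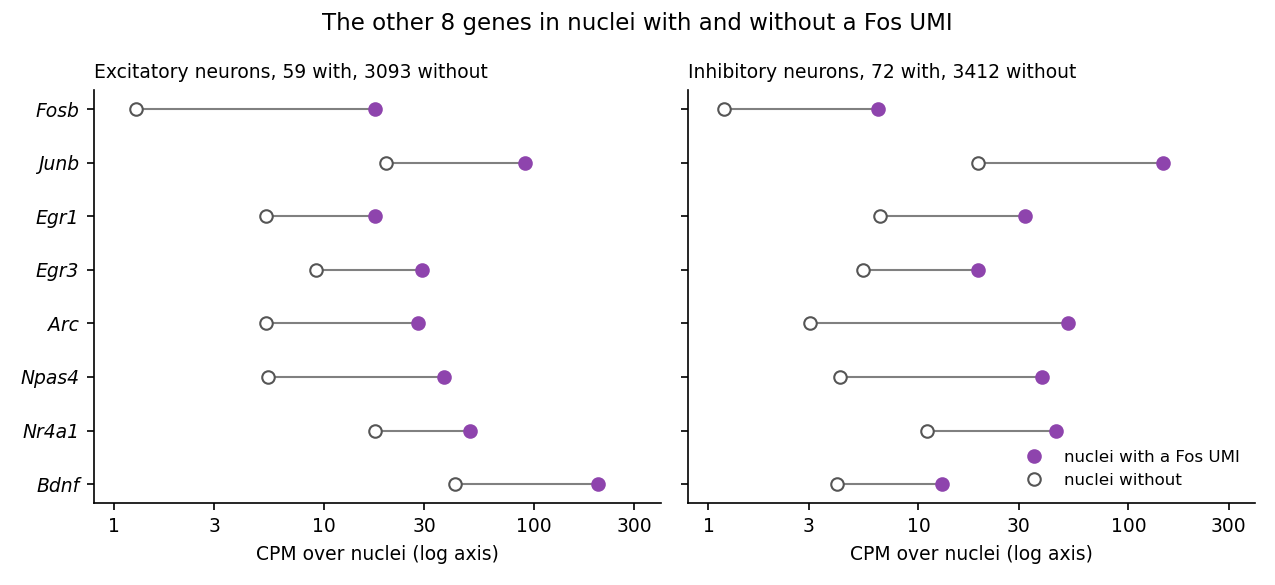
CPM (log axis) of the other 8 genes in nuclei with a Fos UMI (filled) and without one (open), over excitatory (left) and inhibitory (right) nuclei at or above the median depth of their class, with the nuclei of the 4 libraries pooled. Every filled point lies to the right of its open point, and excitatory Bdnf stands at 202 CPM against 41.9 CPM.

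Each of the 9 genes, taken in turn, showed the same direction in excitatory nuclei, where all 8 other genes were higher in nuclei that held it. The contrast was smaller around Egr3, where Junb stood at 27.0 CPM in nuclei with an Egr3 UMI, against 20.5 CPM without, and Npas4 at 8.58, against 5.74 CPM. It was larger around Arc, where Bdnf stood at 130 CPM in nuclei with an Arc UMI, against 39.1 CPM without, and Npas4 at 21.2, against 5.00 CPM. In inhibitory nuclei with a Fos UMI (72, against 3412 without) Junb stood at 146 CPM, against 19.3 CPM, Arc at 51.5, against 3.04 CPM, Npas4 at 38.7, against 4.23 CPM, and Egr1 at 32.2, against 6.56 CPM. Around inhibitory Bdnf, on 82 nuclei, only 5 of the 8 other genes were higher.

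Other genes of the activity response were read from lists in the same blocked edgeR fit of excitatory neurons. Of 18 other rapid transcription factors, 14 were tested and 0 called, with 9 below 0 and a median of -0.04. Egr4, a relative of Egr1, stood at -0.68 ± 0.22 (adjusted p = 0.163), Bhlhe40 at -0.36 ± 0.16 and Nr4a3, a relative of Nr4a1, at -0.23 ± 0.11, and Jund at -0.14 ± 0.11. Of 18 other rapid response genes, 16 were tested. Ptgs2, which encodes cyclooxygenase 2, was the 1 called, beside the share of all genes called lower given above for that fit. Ptgs2 stood at 3.55 and 3.38 CPM in DISC1-N, against 5.62 and 6.40 CPM in WT, and fell by 0.80 ± 0.22 on the log2 scale (adjusted p = 0.0497). Without the block its adjusted p in edgeR was 0.9999. Tiparp, Gadd45b and Fbxo33 did not pass, at -0.47 ± 0.17, -0.44 ± 0.17 and -0.19 ± 0.10.

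Of 12 late response genes, all were tested, 9 were below 0 and 2 were called lower, beside 0.673% of all genes called lower. Scg2, which encodes a secretogranin, a cargo protein of neuropeptide vesicles, stood at 29.1 and 11.2 CPM in DISC1-N, against 43.5 and 23.7 CPM in WT, a fall of 0.80 ± 0.11 on the log2 scale (adjusted p = 1.55e-06 in blocked edgeR). Syt4, which encodes a synaptotagmin, stood at 79.7 and 48.2 CPM in DISC1-N, against 99.2 and 62.2 CPM in WT, a fall of 0.33 ± 0.08 (adjusted p = 0.0211). Rgs4 and Nrn1 did not pass, at -0.41 ± 0.14 and -0.17 ± 0.08. In both genotypes Scg2 was lower in replicate 2 than in replicate 1. Without the block the adjusted p in edgeR was 0.9999 for Scg2 and for Syt4.

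Of 14 upstream regulators (kinases and factors of the CREB, SRF and MEF2 kind), all were tested and 0 called, with 8 below 0 and a median of -0.03. Those of lowest p were Mef2c at -0.15 ± 0.07, Camk4 at -0.13 ± 0.07, Elk4 at 0.23 ± 0.13 and Elk1 at -0.19 ± 0.13. Of 5 genes for BDNF receptors and processing, 4 were tested and 0 called. Ntrk2 stood at -0.15 ± 0.07, and Pcsk5, Furin and Sort1 at 0.06 ± 0.07, -0.03 ± 0.11 and 0.02 ± 0.07.

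Heat shock genes, which also respond to handling and temperature, were counted alongside. Of 9, 8 were tested in blocked edgeR, with 5 below 0 and 3 above 0. Called lower were 3, beside the share of all genes called lower given above for that fit. They were Hspa8 at -0.44 ± 0.08, Hsp90aa1 at -0.39 ± 0.07 and Hsp90ab1 at -0.45 ± 0.08 (adjusted p = 0.000109 in edgeR). Hspe1, at -0.38 ± 0.11, did not pass (adjusted p = 0.0939 in the same fit). Without the block the adjusted p of each of the 3 called genes in edgeR was 0.9999. With the block, Hsp90ab1 was also called lower in inhibitory neurons (-0.47 ± 0.08, adjusted p = 0.0449 in edgeR) and in oligodendrocytes (-0.58 ± 0.14, adjusted p = 0.0248). The part of this in the activity genes was not tested.

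The genes whose levels over cell types were most like each of the 9 were found by Pearson's r of log2(CPM + 1) over 108 sums, of 27 cell types or subclusters in 4 libraries, among 6939 genes. Sums of a library share its depth and free RNA, and a subcluster's sum is part of its class, so r is a description. Bdnf was most like C1ql3 (0.72), Slc17a7 (0.70) and Sv2b (0.70). Nr4a1 was most like Plch2 (0.63), Kcnt2 and Atl1 (0.62 each), Junb like Ivns1abp (0.66) and Mbnl1 (0.65), and Egr3 like Smad3 (0.59), Cfap44 and Rap2b (0.58 each). Arc was most like Mark2 (0.57), Kctd4 (0.50) and Pdgfc (0.49), and Npas4 like Ccdc148 (0.56), Ldb2 and Mrtfa (0.55 each). The likeness was weaker for Egr1, with Mtpn (0.46), Abhd17a (0.45) and C1d (0.43), for Fos, with Gcnt7 (0.40), Drg1 and Rsf1os1 (0.39 each), and for Fosb, with Arpc5 (0.36), Ppme1 (0.35) and Nefl (0.35). Between the 9 genes r ran no higher than 0.47, for Egr1 with Arc, followed by 0.46 for Egr3 with Bdnf, and was -0.21 for Junb with Nr4a1.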

How the data were processed

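Nuclei of the basolateral amygdala were profiled in 4 libraries with the 10x Genomics 3′ v3 kit, per the labels' protocols, 2 of DISC1-N and 2 of WT mice, grouped by their titles. The deposited matrices hold UMI counts per gene and nucleus, which the authors made with Cell Ranger on mm10, version 7.0.0 per the submitters' processing notes. Per the file headers, version 6.0.2 was used for replicate 2 of both genotypes. Whether introns were counted is not given in the sources used here.

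Nuclei with at least 500 genes and under 5% mitochondrial UMIs were kept, and simulated-doublet scores removed 0.8% of nuclei per 1000 nuclei, 1519 in all. Nuclei were clustered (2000 variable genes without activity genes, 30 components, 15 neighbours, resolution 0.5, leidenalg 0.10.2, scikit-learn 1.9.0, Python 3.11.15) and classed by marker genes. Clusters with a median doublet score over 0.1, low depth or mixed markers were left out. For each class, UMI counts were added up within a library and tested over all genes passing edgeR's expression filter by edgeR 4.0.16 quasi-likelihood (R 4.3.3), with Benjamini-Hochberg adjustment and a threshold of 0.05. DESeq2 1.42.0 and limma-voom (limma 3.58.1) were alternatives, as were other filters, classes, doublet shares, thinned sums and each library left out.

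Same-numbered libraries deviated together (correlation 0.835 over 6840 genes in excitatory neurons, 0.801 over 7342 in inhibitory neurons and 0.752 over 7525 in astrocytes). Since the headers' software versions also follow the replicate number, fits with it as a block are given where calls change. Fits were run on simulated counts with known changes. There libraries of the same replicate number shared a mean and spread little around it, a setting that favours the block. The blocked fit recovered most of the changed genes, with 11 false calls in excitatory and 9 in inhibitory neurons. The fit without the block recovered 0. This followed from the setting, so it cannot decide which fit suits these data. The lack of calls without the block does not show that genes did not change. Library totals ranged from 37840301 to 48439711 UMIs. Intervals cover counting error only. The 9 genes and the lists were chosen with earlier results of these data known. From each list the text names the 4 genes of lowest p in excitatory neurons, and any called. For each of the 9 genes it names the 3 genes most like it, and 1 such gene in all is not reported here.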

Additional observations from a re-analysis of the deposited data

How the results depend on the processing

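No gene of the 9 was called for genotype without the replicate block in excitatory or inhibitory neurons under any of the alternatives run. Such fits missed the changes put into simulated counts, but the setting of that simulation favoured the block. With 2 libraries per genotype, the lack of calls does not show that the 9 genes did not change. With the replicate number as a block, 2 were called in excitatory neurons by edgeR, 1 by limma-voom, 2 with no expression filter, 1 with classes by marker UMIs, 1 with thinned sums, and 0 by DESeq2, with nuclei under 1% mitochondrial UMIs or with clusters of high doublet score kept. In inhibitory neurons the block gave 2 with no expression filter and 2 with classes by marker UMIs. In subclusters the block gave 3 calls, and no expression filter without the block gave 1. Excitatory over inhibitory neurons had 5 calls, 3 with thinned sums and 3 to 5 with 1 library left out (3 when WT replicate 1 or DISC1-N replicate 2 was left out). Excitatory neurons over astrocytes had 5, and 2 with thinned sums, where 3 of the genes could be tested. The causes of these changes were not tested.

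Of 209 settings of single genes in excitatory neurons, 200 kept direction and call, 7 were called, and 2 reversed without WT replicate 2, Arc at 0.23 and Npas4 at 0.12 on the log2 scale (ranges with 1 library left out -0.75 to 0.23 and -0.60 to 0.12). Of 204 in inhibitory neurons, 187 kept both, 4 were called and 13 reversed. Fosb reversed to -0.020 with DESeq2, -0.13 with more doublets removed, -0.036 with activity genes used for clustering, and ranged from -0.50 to 0.67 with 1 library left out. Npas4 reversed to 0.13 with more doublets removed, 0.037 with thinned sums and 0.038 with those and the block, and ranged from -0.30 to 0.32 with 1 library left out. With 1 library left out, Nr4a1 ranged from -0.31 to 0.023 and Bdnf from -1.23 to 0.31, both above 0 without DISC1-N replicate 2, and Bdnf also without WT replicate 1. Alternatives for mural cells were not run, since the cluster scoring highest for mural markers was left out for mixed markers. Fos, on 139 excitatory UMIs in all, is limited by depth. In the cluster of high doublet score, the 9 genes summed to 95.6 and 85.7 CPM in DISC1-N, against 96.4 and 96.4 CPM in WT. In the kept excitatory neurons they summed to 109 and 96.1 CPM, against 120 and 137 CPM. The part of doublets in this was not tested.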
